A study of Mus musculus with 6 samples.

Results

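DNA repair genes are described here by the CTCF peaks in and around them. The set holds 57 of the 21887 protein-coding genes placed by RefSeq on mouse build GRCm38.p6, which has the coordinates of mm10. They are the named genes of mismatch repair, structure-specific nucleases, nucleotide excision repair, the Fanconi anaemia pathway, homologous recombination, end joining, base excision repair and translesion synthesis, and all 57 were found in the annotation. The line is Hepa-1c1c7, from a mouse hepatoma, and CTCF was mapped in it by ChIP-seq in 2 libraries of untreated cells (0 µM) and 2 of cells given 25 µM potassium chromate for 90 min before fixation. The series asks whether hexavalent chromium changes CTCF occupancy in promoters. Each library has its own list of peaks: chromium 1 has 14881, untreated 1 has 11707, untreated 2 has 4495 and chromium 2 has 1905, with 1 input shared by the libraries numbered 1 and another by those numbered 2. The labels do not state whether replicate libraries had their own cultures, and p-values measure only the spread between these libraries, which may be technical. The number of mapped reads behind each list is not known. Peak positions cannot check the labelled cell type, and they carry no expression levels.

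Chromate enters cells through anion carriers and is reduced inside them to trivalent chromium, which binds DNA and can crosslink it to small molecules, proteins or the opposite strand. Nucleotide excision repair cuts out bulky adducts, mismatch repair proteins recognise some chromium adducts and can turn them into strand breaks, the Fanconi pathway and structure-specific nucleases act on crosslinks, and homologous recombination and end joining close broken ends. The zinc finger protein CTCF occupies insulators, domain boundaries and many promoters.

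A peak was assigned to a gene by its midpoint: at a gene end when within 1 kb of either end of the gene record, inside when between the ends but farther from both, and flanking when outside by at most 10 kb. A gene was set beside all protein-coding genes whose length was between 2/3 and 1.5 times its own, since long genes collect more peaks. The repair genes were 1.69 to 551 kb long, with a median of 34.3 kb against 17.2 kb for all protein-coding genes. The score of a peak is the authors' own value, and its percentile within its list is used to describe it.

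Of the 57 repair genes, 31 had a peak in at least 1 list in any of these places, against 41.4% of all protein-coding genes and 27.0 genes expected from genes of similar length. A gene-end peak was present at 8 genes, where all protein-coding genes gave 8.56% and genes of similar length would give 5.00. Peaks inside the gene were called at 22 genes (24.8% of all genes, 19.2 expected by length) and flanking peaks at 17 (24.5% of all genes, 14.6 expected). In untreated 1, 18 repair genes had any peak, where length gave 17.2 and all protein-coding genes 25.8%. In chromium 1 there were 24 (19.1 by length, 28.6% of all genes), in untreated 2 there were 8 (7.68, 11.4%) and in chromium 2 there were 5 (3.41, 4.86%). By these counts the repair genes had peaks at a share near that of genes of their length, and the order of the lists followed the number of peaks in them.

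Place by place, gene-end peaks were at 4 repair genes in untreated 1 (4.31% of all genes), 4 in chromium 1 (4.31%), 3 in untreated 2 (1.63%) and 0 in chromium 2 (0.429%). Peaks inside the gene were at 9, 17, 4 and 3 repair genes in that order of lists (13.9%, 16.7%, 6.21% and 2.98% of all genes), and 13.0 were expected by length in chromium 1, the list with the widest gap. Flanking peaks were at 9, 7, 3 and 2 (12.9%, 14.1%, 5.11% and 1.75%). Of the 31 genes, 14 had peaks in exactly 1 list (21.5% of all genes), 12 in 2 (12.2%), 3 in 3 (6.09%) and 2 in 4 (1.64%), so 17 had peaks in at least 2 (19.9% of all genes, 13.6 expected by length). With only the peaks at or above the median score of their list, 21 repair genes had a peak (31.6% of all genes), 7 at a gene end (5.39%), 12 inside (18.0%), 10 flanking (16.7%) and 4 overlapping between lists (4.01%). With every list cut to 1905 peaks, these counts were 10 (17.5%), 5 (2.80%), 8 (9.28%), 3 (8.36%) and 3 (2.04%). The gene-end counts exceeded those of similar-length genes in both, at 3.12 and 1.59 expected, while the counts in any place were near or below theirs, at 20.9 and 11.7 expected.

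**Figure D1:**
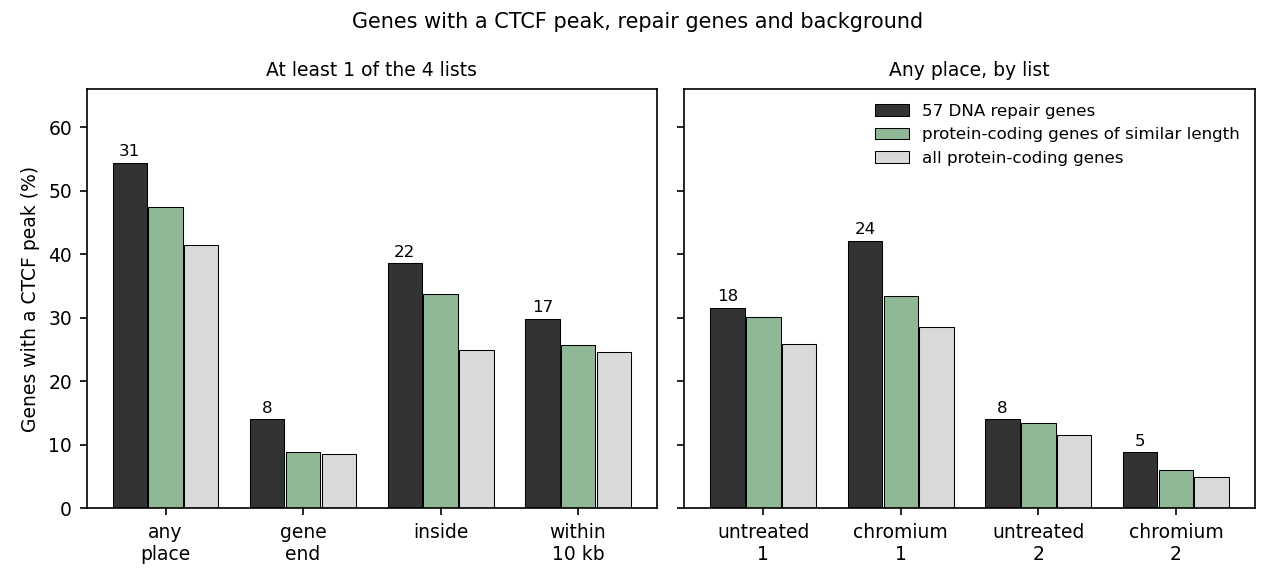
Percent of genes with a CTCF peak (vertical axis), in at least 1 list by place (left) and in any place by list (right), for the 57 DNA repair genes (dark bars, counts above), protein-coding genes of similar length (green, mean over the 57) and all protein-coding genes (grey). The repair genes lie above genes of similar length at gene ends, 8 genes against 5.00 expected, and close to them in untreated 1, 18 against 17.2.

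The 3 genes with the highest-ranked gene-end peaks were Slx1b, Pms1 and Msh3, a structure-specific nuclease and 2 genes of mismatch repair. Slx1b, which encodes the catalytic subunit of the SLX1-SLX4 endonuclease that cuts branched DNA, had the peak with the highest percentile of all the repair genes. It spanned chr7:126695581-126696076 in untreated 1, at the 99.4th percentile of that list, and chr7:126695687-126695978 in untreated 2, at the 92.2nd, with midpoints 45 and 49 bp outside the start of the gene. These peaks overlapped by 292 bp. The nearest peak was 13.5 kb away in chromium 1 and 12.5 kb away in chromium 2, so the site was called in both untreated lists and in neither chromium list. The same peaks lay 172 and 168 bp from the start of the neighbouring gene Bola2, on the other strand. Slx1b also had an untreated 1 peak 2.42 kb inside its start, at the 96th percentile, and peaks 6.58 kb past its end in chromium 1 (16.8th percentile) and 5.61 kb past its end in chromium 2 (51.4th), which did not overlap.

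The Slx1b promoter is printed because it lies whole within the untreated 1 peak and holds a match to the CTCF core, that is CC, any 3 bases and then AGGNGGC, searched on both strands. The window runs from 250 bases before to 50 after the start of transcription (RefSeq, GRCm38.p6, chr7:126695734-126696033, minus strand, 5′ to 3′), and the capitals, from base 260 of the 300, mark the match.
Slx1b promoter: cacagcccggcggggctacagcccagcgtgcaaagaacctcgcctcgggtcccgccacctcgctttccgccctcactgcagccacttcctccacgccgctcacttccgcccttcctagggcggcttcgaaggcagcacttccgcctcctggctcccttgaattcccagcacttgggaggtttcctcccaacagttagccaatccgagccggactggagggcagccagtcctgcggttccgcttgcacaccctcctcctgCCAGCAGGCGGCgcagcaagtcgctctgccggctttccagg
The core was found in 4.12% of the 21263 promoter windows of protein-coding genes. It was in 3.68% of the windows that no peak overlapped, in 26.4% of the 341 overlapped by a peak of untreated 1, in 22.1% of the 258 of chromium 1 and in 26.1% of the 119 of untreated 2. Of the 15 windows overlapped by a peak of chromium 2 it was in 0, where the approximate 95% upper limit (rule of 3) is 20.0%. With so few windows, no difference from the other lists is drawn. Promoter windows were on hand for 46 of the 57 repair genes, and a window of 2 of them, Slx1b and Pms1, was overlapped by a peak, against 2.94% of the 17492 protein-coding genes with a window.

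With Slx1b, 3 of the 46 repair genes held the core in a window, as did 835 of the 17492 protein-coding genes. The 2 others were Ddb1 and Mutyh, and no peak of any list overlapped a window of either. Their matches are set beside that of Slx1b, each read on the strand that holds it, to show that the 12 bases at Ddb1 and Slx1b were the same letters.
Slx1b, chr7:126695763-126695774, minus strand: CCAGCAGGCGGC
Ddb1, chr19:10605349-10605360, plus strand: CCAGCAGGCGGC
Mutyh, chr4:116807723-116807734, minus strand: CCCGAAGGGGGC
Ddb1 encodes the adaptor of the ultraviolet damage sensor. It had a peak 2.57 kb before its start in untreated 1 (58.2nd percentile) and one 1.41 kb inside in chromium 1 (26.1st percentile). Mutyh, the glycosylase that removes adenine paired with oxidised guanine, had only a chromium 1 peak, 7.54 kb past its end at the 65.5th percentile.

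Msh3, the mismatch repair subunit that recognises larger loops, had 6 peaks in 3 lists. At its start, untreated 1 had a peak at chr13:92354598-92354807 (90.3rd percentile) and untreated 2 at chr13:92354609-92354817 (96.5th percentile), with midpoints 302 and 291 bp inside the gene and an overlap of 199 bp. This site too was called in both untreated lists and in neither chromium list, and the nearest peak was 94.6 kb away in chromium 1 and 148 kb away in chromium 2. Neither the core nor the shorter AGGNGGC, present in 33.6% of all promoter windows, was in the Msh3 window, and no peak overlapped that window. Inside the gene, untreated 1 had peaks 5.34 and 51.1 kb from the lower-coordinate end (50.7th and 7.08th percentile) and untreated 2 had 1 at 48.2 kb (76.2nd percentile). Chromium 2 had a peak 5.57 kb past the end of the gene, at the 96.9th percentile, the only chromium 2 peak of a repair gene above the 90th.

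Msh3 and Slx1b were the 2 repair genes with a gene-end peak in both untreated lists and in neither chromium list. Among all protein-coding genes 60 had this pattern, or 0.274%, and 0.154 genes were expected from genes of similar length. The members and lists were chosen with earlier results of these data known, so no enrichment is drawn from these numbers. The opposite pattern, both chromium lists and neither untreated list, was shown by 0 repair genes and by 6 protein-coding genes (0.0274%). Chromium 2, the shortest list, gave a gene-end peak at 0.429% of all genes, against 4.31% in chromium 1. The opposite pattern needs a gene-end peak in chromium 2, and the first pattern needs one in untreated 2, which gave it at 1.63% of all genes. How far the lengths of the lists account for the 60 and the 6 was not tested. Whether chromate changed the 2 sites was not tested. When every list was cut to its 1905 strongest peaks, both sites were still overlapping peaks of 2 lists. Their peaks rank high in their lists and a cut adds no peak, so this could not come out otherwise. The count of 2 describes these libraries: with 2 libraries a group, no exact permutation test over samples can go below a two-sided p of 0.33.

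**Figure D2:**
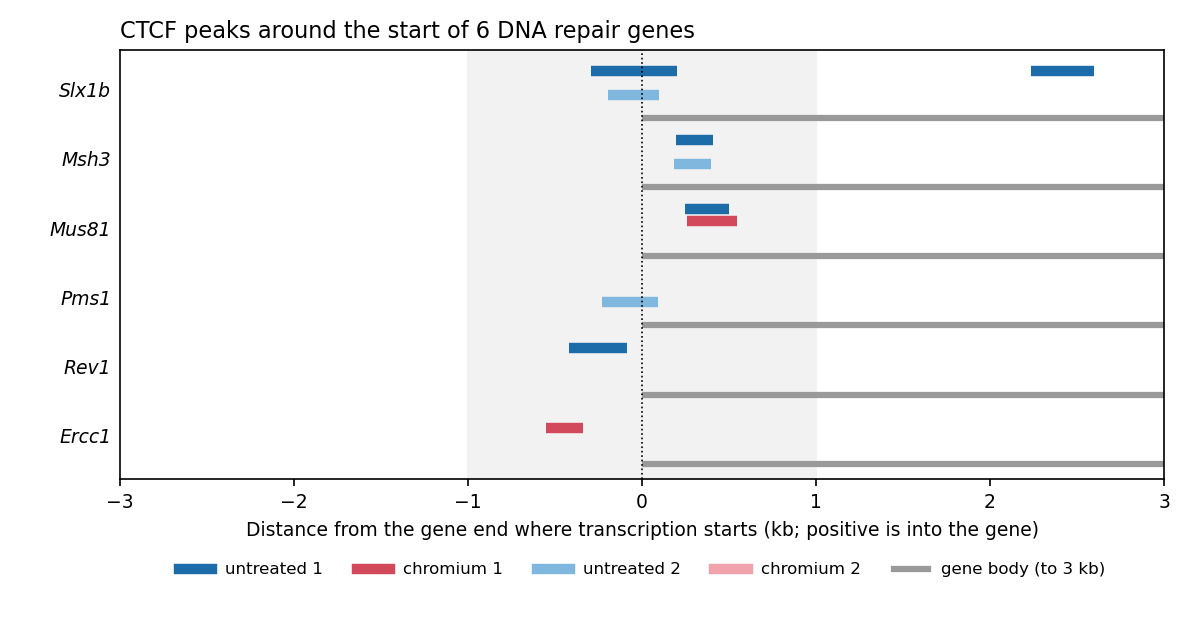
CTCF peaks as horizontal bars, coloured by list, against the distance in kb from the end of the gene record where transcription starts, for the 6 repair genes with a peak within 1 kb of it (shaded). Slx1b and Msh3 have overlapping untreated peaks at their starts, Mus81 has overlapping untreated 1 and chromium 1 peaks, and Pms1, Rev1 and Ercc1 have a peak of 1 list.

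Mus81, the catalytic subunit of the MUS81-EME1 endonuclease, carried a peak under both conditions. The peaks were at chr19:5487892-5488140 in untreated 1 (85.3rd percentile) and chr19:5487846-5488132 in chromium 1 (94.4th percentile), with midpoints 373 and 400 bp inside its start and an overlap of 241 bp. Neither number 2 list had a peak there, and the nearest was 20.8 kb away in untreated 2 and 32.5 kb away in chromium 2. The Mus81 window, which neither peak reaches and which holds the shorter AGGNGGC, is printed with that match in capitals, from base 163 (RefSeq, GRCm38.p6, chr19:5488330-5488629, minus strand, 5′ to 3′).
Mus81 promoter: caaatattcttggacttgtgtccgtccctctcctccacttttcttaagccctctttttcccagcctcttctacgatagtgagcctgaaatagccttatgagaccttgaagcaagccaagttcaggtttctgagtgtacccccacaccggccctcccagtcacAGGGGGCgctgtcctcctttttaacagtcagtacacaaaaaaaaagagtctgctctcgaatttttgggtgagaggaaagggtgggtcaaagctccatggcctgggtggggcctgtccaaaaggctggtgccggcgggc
The shorter motif, which is part of the core, was in a window of 18 of the 46 repair genes. It was in a window of 6351 of the 17492 protein-coding genes, a similar share. Mus81 also had an untreated 1 peak 5.11 kb before its start, at the 44.0th percentile. Of the other nucleases, Slx4, the scaffold that binds SLX1 and MUS81, and Eme1, the partner of MUS81, had no peak in any place, and their nearest peaks were 120 and 95.7 kb away.

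Pms1, a MutL homologue, had its strongest peak over its start in untreated 2 alone, at chr1:53296938-53297260, at the 97.3rd percentile. The midpoint lay 68 bp outside Pms1 and 4 bp from the start of Ormdl1, the gene on the other strand. The nearest peaks were 98.7 kb away in untreated 1, 64.6 kb in chromium 1 and 240 kb in chromium 2. The promoter is printed with the 282 bases inside the peak in capitals (RefSeq, GRCm38.p6, chr1:53296979-53297278, minus strand, 5′ to 3′). Among the 46 repair genes with a window, it was the only one besides that of Slx1b under a peak. The window holds neither the core nor the shorter AGGNGGC, and other forms of the motif were not searched. The part of the peak outside the window was not read.
Pms1 promoter: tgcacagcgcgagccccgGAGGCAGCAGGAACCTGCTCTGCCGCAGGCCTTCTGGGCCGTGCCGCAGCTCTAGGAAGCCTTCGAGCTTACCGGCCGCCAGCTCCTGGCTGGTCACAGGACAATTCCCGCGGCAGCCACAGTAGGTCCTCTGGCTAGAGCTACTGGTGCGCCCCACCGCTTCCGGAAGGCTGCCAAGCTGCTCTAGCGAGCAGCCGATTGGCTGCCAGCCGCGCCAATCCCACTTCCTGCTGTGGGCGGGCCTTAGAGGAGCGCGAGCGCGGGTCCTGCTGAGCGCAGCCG
Inside the gene, Pms1 had a peak in untreated 1 (42.7th percentile) and another in untreated 2 (81.5th percentile), which did not overlap. It was the only repair gene with peaks in any place in both untreated lists and in neither chromium list (1.26% of all genes).

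Pms2, the MutL subunit with the endonuclease activity of mismatch repair, held the repair site found in the most lists. It lay 2.69 to 2.74 kb past the end of the gene, at chr5:143975251-143975614 in chromium 1 (65.5th percentile), chr5:143975326-143975587 in untreated 1 (85.3rd) and chr5:143975365-143975605 in untreated 2 (18.8th), and the nearest chromium 2 peak was 170 kb away. The 3 midpoints were 96 to 149 bp from the start of the predicted gene LOC115486439. Pms2 further had 2 untreated 1 and 2 chromium 1 peaks inside it, at the 94.5th, 59.5th, 93.1st and 83.4th percentiles, and the closest of these from different lists were 3.14 kb apart. The remaining mismatch repair genes had no peak. Msh6, the subunit that recognises base mismatches, was 25.9 kb from the nearest peak, Mlh3 91.5 kb and the exonuclease gene Exo1 12.6 kb.

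With Slx1b, Msh3, Mus81 and Pms2, overlapping peaks of 2 or more lists were present at 4 of the 57 repair genes. All protein-coding genes gave 5.90% and genes of similar length 3.68 genes, so the number of recurrent sites was near the background. The scores at gene ends were higher than elsewhere in the set. The 11 gene-end peaks had a median percentile of 92.2 and a median width of 287 bp, and 7 of them (63.6%) were at or above the 90th percentile, against a median of 58.8 and 19.1% for the 2154 gene-end peaks of all protein-coding genes. The 40 peaks inside the genes had a median percentile of 42.7 (49.6 for all genes), and the 21 flanking peaks 49.6 (56.3 for all genes). Of the inside peaks, 20 had the shortest width found in the lists, as did 37.3% of those of all genes. The 11 peaks came from 8 genes, 3 of them with overlapping peaks that mark 1 site each, so these are descriptions of few sites.

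**Figure D3:**
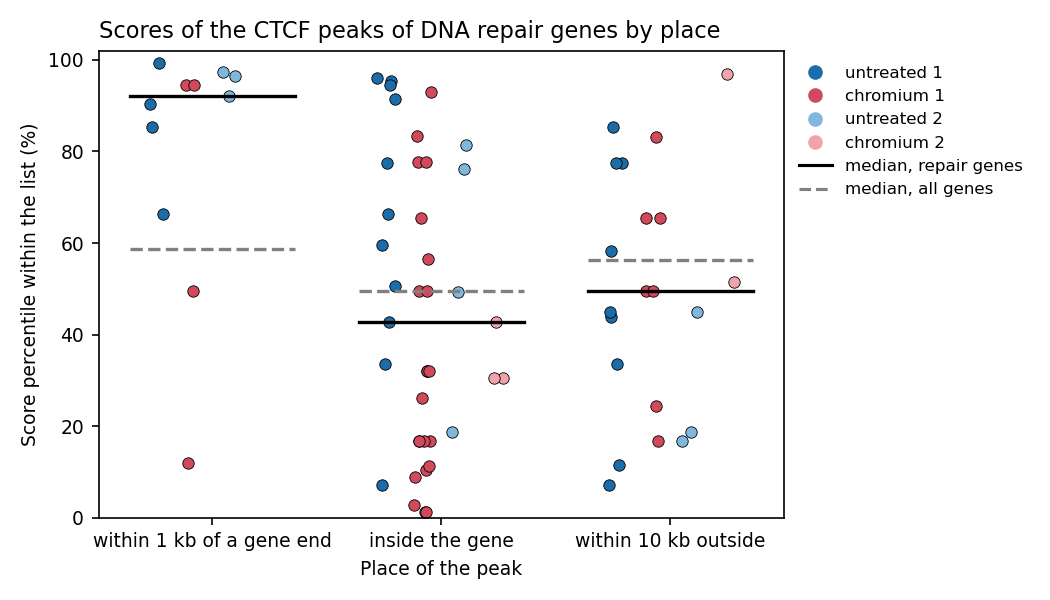
Score percentile within the list (vertical axis) of each CTCF peak of the DNA repair genes, by place and coloured by list, with solid lines for the median over the repair genes and dashed lines for all protein-coding genes. The gene-end peaks have a median of 92.2 against 58.8 for all genes, while the peaks inside the genes have 42.7 against 49.6.

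The strand of 46 repair genes was known from the promoter table. Starts and ends of genes were taken from the gene record, which can differ from the start of transcription of a promoter window. By the record, 6 of the 46 had a peak within 1 kb of the start and 1 had a peak at the other end. All protein-coding genes of known strand gave 5.65% and 3.46%, and genes of similar length 2.62 and 1.57 genes. Besides Slx1b, Msh3, Mus81 and Pms1, the starts with a peak were those of Rev1 and Ercc1. Rev1, a translesion polymerase that inserts cytosine opposite damaged bases, had an untreated 1 peak 253 bp outside its start at chr1:38130007-38130341 (66.4th percentile) and a chromium 1 peak deep inside the gene (77.8th percentile). Ercc1, the partner of the XPF nuclease, had a chromium 1 peak 446 bp outside the start of its record, at chr7:19343517-19343725 (49.6th percentile). Its promoter window begins inside the record, at chr7:19344821, so the peak was more than 1 kb from that start of transcription. Ercc1 also had an untreated 2 peak 5.43 kb past its end (16.8th percentile). Xrcc5, the larger subunit of the Ku heterodimer that binds broken ends, was the gene with a peak at its other end, 350 bp past it in chromium 1 at the 12th percentile. Ddb2, the subunit that recognises ultraviolet lesions, had a chromium 1 peak at chr2:91236088-91236380 (94.4th percentile), 898 bp inside its higher-coordinate end, and no other peak. Its strand was not in the table used here, and the nearest peak of another list was 259 kb away. No gene-end peak of a repair gene was called in chromium 2, which held 1905 peaks and gave such a peak at 0.429% of all genes.

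**Figure D4:**
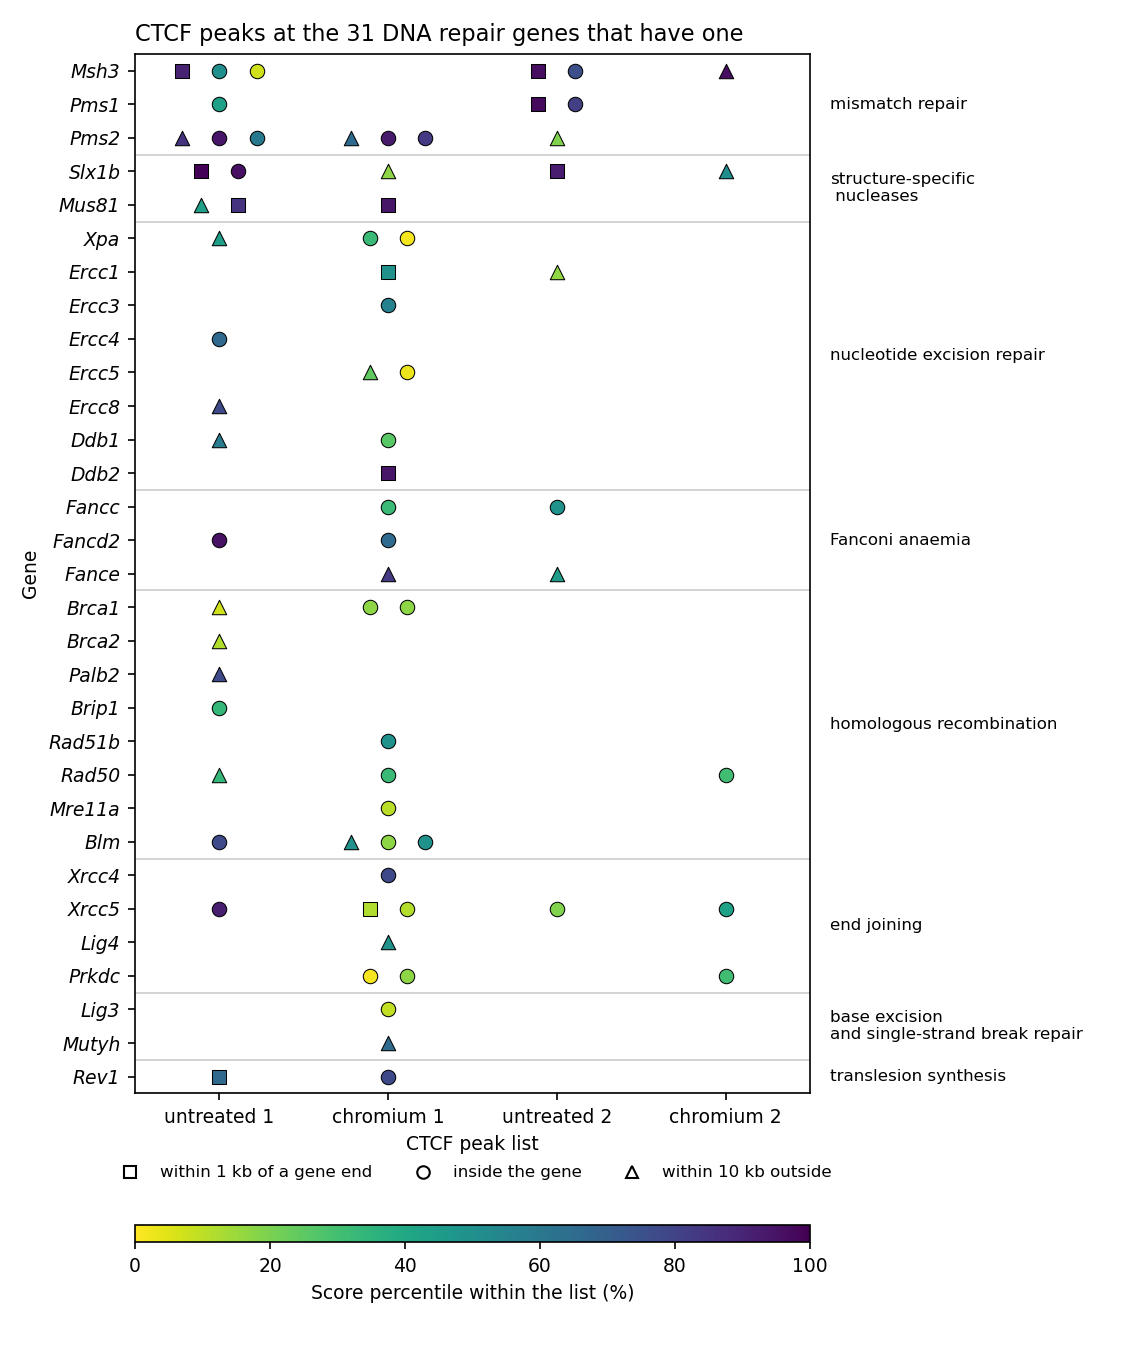
Each symbol is 1 CTCF peak of a DNA repair gene (rows, by repair pathway) in 1 of the 4 lists (columns), with the place given by its shape and the score percentile within the list by its colour; the order of symbols within a cell carries no meaning. Of the 31 genes, 14 have peaks in 1 list, and only Slx1b and Xrcc5 have peaks in all 4.

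Nucleotide excision repair had a peak in any place at 8 of 11 genes, with 4.92 expected by length (41.4% of all genes). In number of genes this gap was the widest of the pathways, a ranking made from the counts and not tested. In chromium 1, the longest list, 6 of its genes had a peak. Besides Ddb1, Ddb2 and Ercc1, the 8 genes were Xpa, Ercc3, Ercc4, Ercc5 and Ercc8. Xpa, which verifies the lesion, had 2 chromium 1 peaks inside it (32.1st and 1.36th percentile) and an untreated 1 peak 6.06 kb before its start (44.9th). Ercc3, the XPB helicase of TFIIH, had a chromium 1 peak inside it at the 56.6th percentile and no other. Ercc4, the XPF nuclease itself, had an untreated 1 peak 7.14 kb inside its start (66.4th). Ercc5, the nuclease of the other incision, had only chromium 1 peaks, 1 inside (2.83rd) and 1 at 6.61 kb past its end (24.5th). Ercc8, which acts at stalled RNA polymerase, had an untreated 1 peak 6.70 kb before its start (77.4th). None of these peaks of the pathway overlapped between lists, and none was called in chromium 2. Xpc, Ercc2 and Ercc6 had no peak, with the nearest at 208, 20.1 and 1077 kb.

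The Fanconi anaemia genes had a peak at 3 of 10 genes, with 4.70 expected by length. None had one at a gene end, where only 0.842 genes were expected by length (8.56% of all genes). Fancd2, the protein that is ubiquitinated at stalled forks, had an untreated 1 peak near the middle of the gene at the 95.4th percentile, at chr6:113564362-113564631, and a chromium 1 peak at the 65.5th. The midpoints were at 32.9 and 29.4 kb from the lower-coordinate end, so the peaks did not overlap. Fance, a subunit of the core complex, had flanking peaks 1.88 kb past its end in chromium 1 (83.2nd percentile) and 6.13 kb past it in untreated 2 (45.0th). Fancc, of the same complex, had 1 chromium 1 and 1 untreated 2 peak inside it (32.1st and 49.3rd). Fanca, Fancb, Fancf, Fancg, Fanci, Fancl and Fancm had none.

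Homologous recombination genes had a peak at 8 of 13, with 6.66 expected. None had one at a gene end, where only 1.07 genes were expected by length. Apart from 1 peak each of Blm and Palb2, their peaks were at or below the median score of their lists. Brca1 had 2 chromium 1 peaks inside it, both at the 16.8th percentile, and an untreated 1 peak 3.59 kb before its start (7.08th). Brca2, a mediator of strand exchange, had an untreated 1 peak 3.61 kb past its end (11.5th), and Palb2, its partner, one 5.29 kb past its end (77.4th). Blm, the helicase of Bloom syndrome, had an untreated 1 peak inside it (77.4th) and 3 chromium 1 peaks, 2 inside and 1 flanking (16.8th to 49.6th). Rad50, the ATPase of the complex that senses broken ends, was called in untreated 1 (flanking, 33.6th), chromium 1 and chromium 2 (inside, 32.1st and 30.6th), at 3 separate positions. Brip1 had an untreated 1 peak (33.6th), and Mre11a and Rad51b had chromium 1 peaks (10.4th and 49.6th), all inside. Rad51b, at 551 kb the longest repair gene, held 1 peak, while 72.3% of genes of its length had a peak. Rad51c, Xrcc2, Xrcc3, Nbn and Wrn had none.

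End joining genes had a peak at 4 of 5, with 2.78 expected. Xrcc5 had peaks in all 4 lists, as did 3.56% of genes of similar length, yet no peaks overlapped. The 4 positions inside it lay 18.0 kb (chromium 1, 11.4th percentile), 56.4 kb (chromium 2, 42.7th), 57.6 kb (untreated 2, 18.8th) and 68.2 kb (untreated 1, 91.6th) from its start. Prkdc, the catalytic subunit of the kinase that Ku recruits, was the only repair gene with peaks in both chromium lists and in neither untreated list (0.521% of all genes). Its 2 chromium 1 peaks (1.36th and 16.8th) and its chromium 2 peak (30.6th) were inside the gene, 126 and 128 kb against 101 kb from its lower-coordinate end. Xrcc4, the scaffold of the ligase, had a chromium 1 peak inside it (77.8th), and Lig4, the ligase, had one 6.44 kb past its end (49.6th). Xrcc6, the smaller Ku subunit, had none.

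Base excision and single-strand break repair had a peak at 2 of 7 genes, with 2.83 expected, both in chromium 1. Besides the flanking peak of Mutyh, Lig3, the ligase that seals nicks with XRCC1, had a peak 1.01 kb inside its end at the 9.02nd percentile. Ogg1, the glycosylase for oxidised guanine, Apex1, the endonuclease at abasic sites, Polb, which fills the gap, and Xrcc1 and Lig1 had no peak in any list.

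For the 26 repair genes without a peak, the nearest peak of any list was 12.4 to 3893 kb away, with a median of 93.6 kb. These genes had a median length of 26.7 kb, against 47.9 kb for the 31 with a peak. Their chromosomes differed in the density of peaks. Chromosome 12, with 0.917 peaks per Mb over the 4 lists, held 4 repair genes, of which Mlh3, Fancm and Xrcc3 had none. Fancb was on chromosome X, with 0.949 per Mb, and was the gene farthest from a peak. Xrcc6 and Msh6 had no peak although they lay on dense chromosomes, where 75.9% and 78.4% of genes of 1/2 to 2 times their length did. Counted from genes of that length on the same chromosome, 26.3 of the 57 repair genes were expected to have a peak, against 27.0 without regard to chromosome.

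By group, the share of repair genes with a peak was 22.8% ± 12.4 (SD, n = 2) for untreated cells. For cells given chromate it was 25.4% ± 23.6 (SD, n = 2). The difference, chromium minus untreated, was 2.63 percentage points (two-sided exact permutation test, p = 1). It was 10.5 points in pair 1 and -5.26 points in pair 2, the direction of the list lengths. As a share of its list, peaks of repair genes made up 0.205% in untreated 1 (24 peaks, exact Clopper-Pearson 95% interval 0.131 to 0.305), 0.222% in chromium 1 (33 peaks, 0.153 to 0.311), 0.222% in untreated 2 (10 peaks, 0.107 to 0.409) and 0.262% in chromium 2 (5 peaks, 0.0853 to 0.611). These intervals cover counting error only, and all of them overlapped. The difference in the means was 0.0284 points (two-sided exact permutation test, p = 0.667). It turned to -0.00159 with a flank of 5 kb, so no direction is drawn from it. By gene, 6 had peaks in untreated lists only, 10 in chromium lists only and 15 in both (11.4%, 11.8% and 18.1% of all genes).

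Within their lists, the peaks of repair genes ranked higher in the untreated than in the chromium libraries, a comparison chosen after the values were seen. The median percentile was 66.4 in untreated 1 and 62.7 in untreated 2, and 32.1 in chromium 1 and 42.7 in chromium 2. Peaks in the 3 places of all protein-coding genes had medians of 50.7, 50.4, 49.6 and 49.9 in the same order. The untreated mean was 64.6 ± 2.59 (SD, n = 2) and that after chromate 37.4 ± 7.45 (SD, n = 2). The groups did not overlap, and the difference was -27.2 points (p = 0.33 by a two-sided exact permutation test, which with these numbers reaches no lower value). At or above the 90th percentile were 6 of 24 peaks in untreated 1 and 3 of 10 in untreated 2, against 10.8% and 9.97% of all their peaks. In chromium 1 there were 3 of 33 and in chromium 2 there was 1 of 5, against 10.0% and 10.2%. The start sites of Slx1b and Msh3 are counted in both untreated lists. With every list cut to its 1905 strongest peaks the difference was -24.1 points and the groups overlapped (p = 1 by the same exact permutation test). Percentiles were still those of the full lists, and chromium 2 was not shortened. The cut therefore cannot show whether the difference holds.

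A second list of 70 repair genes, such as the TFIIH subunits, further glycosylases, polymerases and helicases, was counted in the same way. A peak in any place was present at 32 of them, with 30.6 expected by length, a gene-end peak at 8 (6.64 expected) and overlapping peaks of 2 or more lists at 4 (4.49 expected). The 4 were Gtf2h2, a TFIIH subunit, with untreated 1 and chromium 1 peaks at a gene end (85.3rd and 49.6th percentile), Recql5, a helicase, inside the gene in the same lists (96.7th and 49.6th), Nthl1, a glycosylase for oxidised pyrimidines, flanking (87.6th and 23.4th), and Smug1, a uracil glycosylase, flanking (98.4th in both). None of the 70 had a gene-end peak in both untreated lists and in neither chromium list, where 0.216 were expected.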

How the data were processed

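Per the submitters' processing notes, the authors aligned reads with Bowtie and called peaks with MACS2 on mm10. Each deposited list holds the interval of every peak with a score. Its scale, the calling thresholds and the versions were not given in the sources used here. By their names, peaks come from 1 call per library against 1 input, not calls on pooled replicates. Intervals were converted to 1-based coordinates, on chromosomes 1 to 19, X and Y, which left out 14 mitochondrial peaks. Genes and promoter sequences came from RefSeq tables of GRCm38.p6. These give no exons, so exon and intron were not told apart. The read depth is not known. Libraries were grouped by their titles, and the number of expected genes is the sum of the shares in genes of similar length, between 314 and 4945 genes a member. Groups were compared with exact permutation tests over the libraries. The placing of peaks was tested on simulated data, where 300 of 300 planted genes and 150 of 150 overlaps were recovered. The members and lists were chosen with earlier results of these data known. Named in full were members with a gene-end peak or overlapping peaks, and the 10 others with the highest percentile; the rest are named with their lists. Python 3.11.15, numpy 2.4.6, pandas 2.3.3, scipy 1.17.1 and matplotlib 3.10.9 were used. Alternatives were other windows and flanks, score filters, placing by overlap, a stricter overlap and each library left out. A neighbouring gene of 1 site is not reported here.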

Additional observations from a re-analysis of the deposited data

How the results depend on the processing

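With a flank of 5 kb, 6 repair genes had a flanking peak instead of 17. With peaks at or above the median score of their list, 12 had one inside and 10 flanking, while 7 kept a gene-end peak (5.39% of all genes, 3.12 expected by length). With lists of equal length the counts were 5 at gene ends (2.80% of all genes, 1.59 expected), 8 inside, 3 flanking and 10 in any place (11.7 expected), by construction of fewer peaks. The 5 at gene ends were Ddb2, Msh3, Mus81, Pms1 and Slx1b. Leaving out each library gave 5 to 8 genes at gene ends, 12 to 22 inside, 9 to 16 flanking, 22 to 31 in any place and 1 to 4 with overlapping peaks. The 5 and the 12 were without chromium 1, the 9 and the 1 without untreated 1, and without untreated 2 there were 2 with overlapping peaks. A shorter flank or a library left out can only lower or keep such counts, in any set of genes. Shares of all protein-coding genes were not counted with other flanks or with a library left out. The changes in these counts therefore describe no trait of the repair genes. The difference in the share of genes with a peak, chromium minus untreated, was -2.63 points with a flank of 20 kb, 0 at or above the median score, -0.877 with equal lists and -14.0 to 19.3 with a library left out. It was negative without chromium 1 and without untreated 2 (-6.14). As a share of each list it was -0.00159 points with a flank of 5 kb, -0.000387 with 20 kb, -0.0350 at or above the median score and -0.131 with equal lists, and the cause was not tested. The difference in median percentile was -41.3 with a flank of 5 kb, and -32.4 to -21.9 with a library left out. It was -16.9 at or above the median score and -24.1 with equal lists, where chromium 2 stays whole (exact permutation p = 1 for equal lists). Under these score filters the percentiles were those of the full lists and low ranks were removed by construction. Their negative sign is therefore no check on the difference. Each of the 3 differences kept its value with the pairs as a replicate block, at 2.63, 0.0284 and -27.2 points, where the exact sign-flip test cannot go below p = 0.5 (p = 1, 0.5 and 0.5). Same-numbered libraries deviated together with a correlation of 0.134 across all protein-coding genes and 0.229 across the repair genes. They share an input, and their titles carry neighbouring library codes. Whether they also share a preparation is not stated. Depth is unknown, so an uncalled site is not shown to be unbound.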
